A study of Mus musculus with 46 samples.

Results

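The 6 genes described here are Tshz1, Zfhx3, Tnrc18, Epb41l4a, Hectd4 and Maml3, measured by RNA sequencing in microglia, the macrophages that live in brain tissue, from mice. They were chosen from these measurements, as genes seen lower on the HAMSAB diet than on the zero-fiber diet in AD mice, or higher on zero fiber than on the control diet. They are 6 of 54134 genes in the count table, and all 6 were among the 12121 genes with enough reads to be tested. HAMSAB is a resistant maize starch modified with acetate and butyrate, short-chain fatty acids that the bacteria of the gut set free. The AD mice are 5xFAD, a model of Alzheimer's disease in which human transgenes are driven by the neuronal Thy1 promoter, and the WT mice are wild type. The AD groups hold 8 libraries on HAMSAB, 8 on zero fiber and 8 on control. The WT groups hold 8 on HAMSAB, 6 on zero fiber and 8 on control. By the labels, every group has 4 female and 4 male libraries except zero-fiber WT, with 4 female and 2 male. Age, time on the diet, the way the microglia were isolated and whether each library came from its own mouse are not stated in the sources used. The p-values below therefore measure the spread between these libraries, which may be technical in part.

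The genes fall into 3 kinds by what their proteins do. Tshz1, Zfhx3 and Tnrc18 encode nuclear proteins that act on transcription or chromatin. Tshz1 is a teashirt zinc finger homeobox factor, Zfhx3 a very large factor with many zinc fingers and several homeodomains, known in mice for its part in circadian timing, and Tnrc18 a large chromatin protein with a BAH domain. Maml3 is a mastermind-like coactivator of Notch signalling. In that pathway a ligand on a neighbouring cell leads to cleavage of the receptor by gamma-secretase, and the freed intracellular domain joins the DNA-binding protein RBPJ and a mastermind protein to switch on targets such as Hes1. Epb41l4a belongs to the band 4.1 family, whose FERM domain links membrane proteins to the cell cortex, and Hectd4 carries the HECT domain of a class of ubiquitin ligases. Because whole cell preparations were sequenced, fewer cells of a type and less RNA per cell cannot be told apart.

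The promoters are shown for the genes whose levels are later shown in pairs, Zfhx3 with Tnrc18 and Hectd4 with Maml3. Windows for these 4 of the 6 genes were taken from RefSeq (build GRCm38.p6), and none is given for the other genes. Each window runs from 250 bases before to 50 bases after the annotated start. It is printed 5′ to 3′ on the strand of the gene. Zfhx3 lies at chr8:108714394-108714693 (+), inside the longer span that the gene annotation gives it. Tnrc18 lies at chr5:142817613-142817912 (-), Hectd4 at chr5:121219969-121220268 (+) and Maml3 at chr3:52104957-52105256 (-). Capitals mark matches, on either strand, to any of 8 short motifs.
Zfhx3: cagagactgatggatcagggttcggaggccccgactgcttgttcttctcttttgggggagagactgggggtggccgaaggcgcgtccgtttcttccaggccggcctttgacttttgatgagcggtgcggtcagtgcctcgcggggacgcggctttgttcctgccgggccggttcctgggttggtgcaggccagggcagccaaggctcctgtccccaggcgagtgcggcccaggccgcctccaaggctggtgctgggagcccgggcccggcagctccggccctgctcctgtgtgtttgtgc
Tnrc18: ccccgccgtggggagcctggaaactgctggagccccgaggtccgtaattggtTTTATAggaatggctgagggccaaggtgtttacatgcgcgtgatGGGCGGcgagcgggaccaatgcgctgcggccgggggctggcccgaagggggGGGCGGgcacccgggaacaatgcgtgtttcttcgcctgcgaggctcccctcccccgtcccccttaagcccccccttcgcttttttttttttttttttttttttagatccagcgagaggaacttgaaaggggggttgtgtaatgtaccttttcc
Hectd4: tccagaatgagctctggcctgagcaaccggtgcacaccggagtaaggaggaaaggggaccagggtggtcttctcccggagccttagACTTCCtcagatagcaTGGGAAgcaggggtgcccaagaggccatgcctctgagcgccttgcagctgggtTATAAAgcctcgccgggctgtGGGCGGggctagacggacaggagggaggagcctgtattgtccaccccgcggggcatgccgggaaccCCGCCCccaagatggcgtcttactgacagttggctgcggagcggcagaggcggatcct
Maml3: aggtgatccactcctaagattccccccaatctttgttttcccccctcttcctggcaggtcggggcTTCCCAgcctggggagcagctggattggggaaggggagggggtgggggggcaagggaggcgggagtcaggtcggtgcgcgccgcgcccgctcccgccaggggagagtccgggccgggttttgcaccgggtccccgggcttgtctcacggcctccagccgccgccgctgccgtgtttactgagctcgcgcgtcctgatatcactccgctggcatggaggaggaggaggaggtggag
The windows were GC-rich, at 67.3% in Zfhx3, 59.3% in Tnrc18, 63.7% in Hectd4 and 68.3% in Maml3, against a median of 52.7% over 32851 RefSeq promoter windows. Zfhx3 and Tnrc18 held 21 CG dinucleotides each, Hectd4 16 and Maml3 22, against a median of 7. The SP1 motif GGGCGG matched at 2 places each in Tnrc18 and Hectd4, and 35.7% of all windows hold it. The RBPJ motif TGGGAA matched once in Hectd4 and once in Maml3, and 25.6% of all windows hold it. The PU.1 motif GGAAGT, for a factor of the macrophage lineage, matched in Hectd4 alone, against 23.8% of all windows. The TATA box TATAAA matched in Tnrc18 and Hectd4, against 13.6%. The interferon-stimulated motif of GAAA, any pair of bases and GAAA (3.44% of windows), the cyclic AMP response element TGACGTCA (1.79%), the E-box CACGTG (7.15%) and the NRF1 motif GCATGCGC (2.71%) matched none of the 4 windows. None of the motifs matched in the Zfhx3 window, and a match or its lack is a description of these letters only.

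Most of the 6 genes have long transcripts. The exons of Zfhx3, on chromosome 8 (107942644 to 108961630, GRCm38), span 20976 bases, longer than 99.4% of tested genes. Hectd4, on chromosome 5 (121220219 to 121368577), has 16443 bases, Tnrc18, on chromosome 5 (142724661 to 142817662), 12266, and Maml3, on chromosome 3 (51685907 to 52105076), 10486. Epb41l4a, on chromosome 18 (33796327 to 34006966), has 9071 and Tshz1, on chromosome 18 (84011627 to 84087706), 5848 bases of exon. The median tested gene has 4170. All 6 are annotated as protein-coding, and no exon of theirs overlaps an exon of another gene. Maml3 holds 11 unspliced gene models on its own strand within introns and Zfhx3 holds 2, of which 8 and 2 were tested and none was called between HAMSAB and zero fiber in AD or WT mice, between HAMSAB and control in WT mice, between AD and WT mice on HAMSAB or between the sexes.

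Per kilobase of exon, the level of Zfhx3 was the highest of the 6, at 38.6 CPM per kb (CPM being read counts scaled to library size), above 89.4% of tested genes. Maml3 followed at 13.6 CPM per kb. Tnrc18 at 6.15 and Tshz1 at 5.98 CPM per kb stood near the median tested gene, at 6.02, and Hectd4 stood at 3.20. Epb41l4a was scarce, at 0.290 CPM per kb, with 326 reads over the 46 libraries and a median of 5 reads in a library. Its level in any single library is therefore imprecise.

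The libraries held 52114 to 6950429 counts (median 2344837.5). A pair of libraries is doubted in what follows. In zero_fiber_AD_M replicate 2, of the lowest depth, 1 read is worth 15.4 CPM, and the next lowest total is 783849. In the library labelled zero_fiber_AD_F replicate 1, Xist stood at 0.212 CPM and the Y-linked Ddx3y at 141 CPM, against 651 to 1150 CPM of Xist and at most 17.8 CPM of Ddx3y in the other 23 libraries labelled female. Libraries labelled male had at most 6.38 CPM of Xist and, apart from the shallow one, 93.6 to 168 CPM of Ddx3y, so this library has the levels of a male. The 8 microglial markers summed to 28100 to 35300 CPM in HAMSAB AD, 23700 to 38100 in zero-fiber AD and 29800 to 36500 in control AD libraries, and all 8 were detected in each group. The 9 markers of perivascular macrophages summed to 19.7 to 46.1 CPM in HAMSAB AD, 32.5 to 95.4 in zero-fiber AD and 27.3 to 161 in control AD libraries, with Folr2 at 0 in every control AD library. The 8 neuronal markers summed to 11.8 to 40.6, 13.3 to 39 and 5.58 to 16 CPM in the same order of groups. The 6 lymphocyte markers summed to at most 1.3 CPM in any AD library. Summed markers of oligodendrocytes, astrocytes, vessels, choroid plexus and red cells, monocytes, nuclear RNA and mitochondrial mRNA had ranges that overlapped between the AD diets.

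In AD mice, all 6 genes had a lower mean on HAMSAB than on zero fiber. As this difference was used to choose them, it is given without a test. The log2 fold changes (HAMSAB over zero fiber, ± SE) had a median of -0.62, against 0.004 over all tested genes. With edgeR, 2 of the 6 (Tshz1 and Tnrc18) had an adjusted p under 0.05, where 0.182% of all tested genes did, and since these values chose the genes nothing is read from that count. The count moved between 0 and 4 with the way the data were processed. It was 4 without robust shrinkage of the spread, 3 with DESeq2, 4 with limma voom, 1 with a term for the title series and 0 without the doubted pair of libraries. With 1 library left out at a time it ran from 0 (without HAMSAB_AD_M replicate 3 or zero_fiber_AD_M replicate 4) to 5 (without HAMSAB_AD_M replicate 1). Without that pair the log2 fold changes were -0.72 for Tshz1, -0.58 for Zfhx3, -0.58 for Tnrc18, -1.53 for Epb41l4a, -0.31 for Hectd4 and -0.42 for Maml3, so the sizes moved little where the calls were lost. Markers of other cells went along in part. All 7 tested perivascular macrophage markers had lower means on HAMSAB than on zero fiber in AD mice (median log2 fold change -0.76), and lower on zero fiber than on control (-0.43). The 4 tested neuronal markers had lower means on HAMSAB than on zero fiber (-0.33) and higher on zero fiber than on control (1.08). Of 5 choroid plexus and red cell markers, the 4 globins stood below zero fiber on HAMSAB, with a median of -2.35 over the 5, and above control on zero fiber (2.90). No gene of these 3 lists was called in either comparison, and the part of such cells in the levels of the 6 genes was not tested. The diet comparisons share libraries with each other, and their values are set side by side for each gene below.

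**Figure D1:**
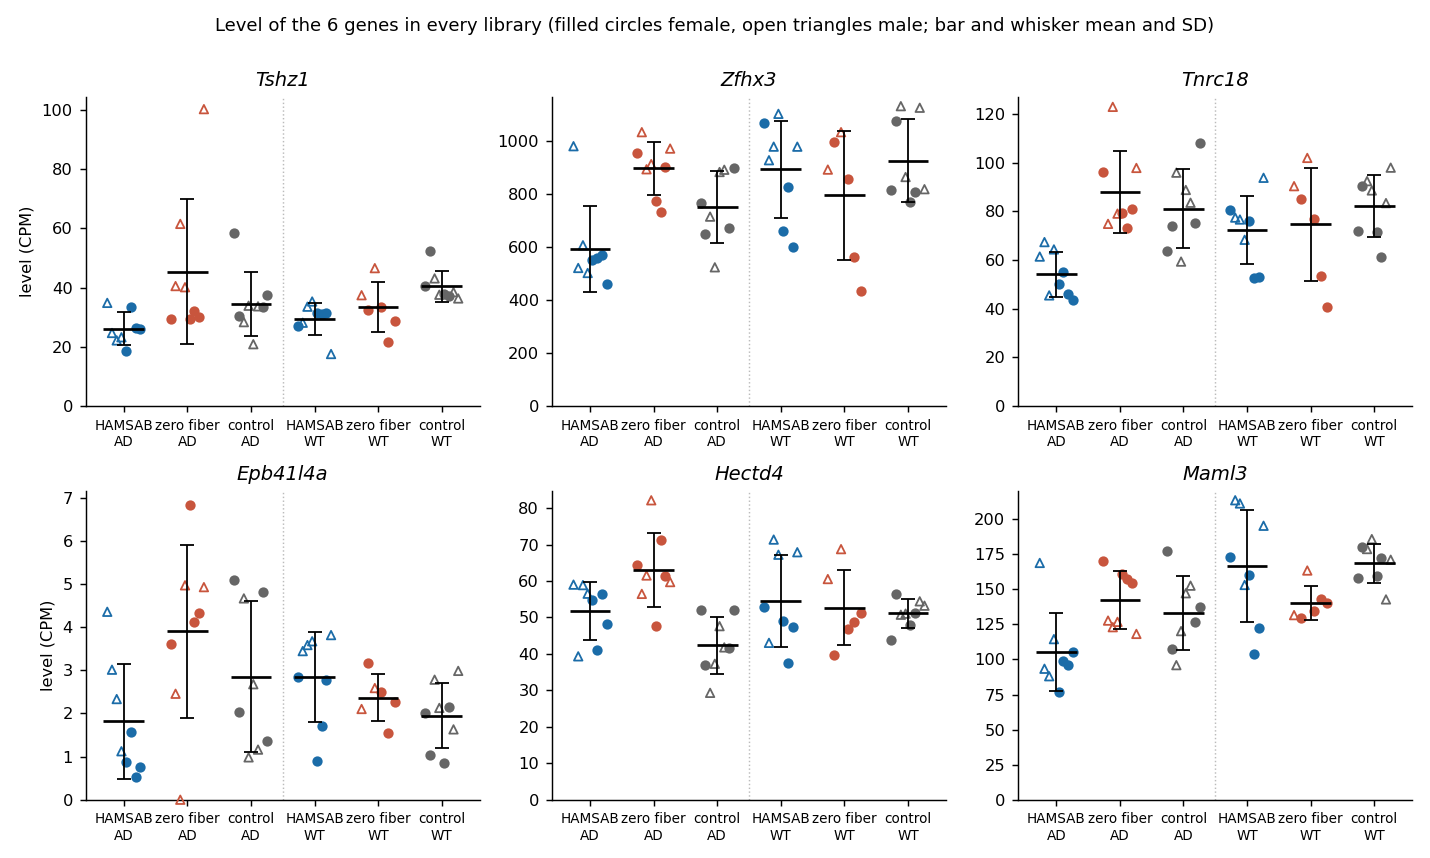
Level in CPM of each of the 6 genes in all 46 libraries, by diet and genotype, with HAMSAB AD at the left; filled circles are female, open triangles male, and bars with whiskers give mean and SD. All 8 HAMSAB AD libraries of Tnrc18 lie at 43.5 to 67.4 CPM, below the 73.2 to 123 CPM of zero-fiber AD, while the other genes overlap. The share of tested genes so apart was not counted.

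Tnrc18, whose human protein binds a silencing mark on histone H3, was the gene of the 6 whose ranges on HAMSAB and zero fiber were apart in AD mice. HAMSAB AD libraries ran from 43.5 to 67.4 CPM with a median of 52.6, and zero-fiber AD libraries from 73.2 to 123 CPM with a median of 80.2. No library of either diet reached into the range of the other. The genes were chosen on this difference, and the share of tested genes so apart was not counted, so the gap is a description. Means were 54.2 ± 9.30 CPM on HAMSAB, 88.1 ± 16.8 on zero fiber and 81.1 ± 16.3 on control (SD, n = 8 each). The highest zero-fiber value, 123 CPM, came from the shallow library and rests on 8 reads, and the next highest was 97.9 CPM. The log2 fold change between HAMSAB and zero fiber was -0.64 ± 0.13 (SE), and it lay between -0.68 and -0.59 in the 16 fits that left out 1 library. Against control it was -0.58 ± 0.13, and Tnrc18 was the 1 gene of the 6 called there by edgeR, where 0.107% of tested genes were. That call held in 5 of 16 fits with 1 library left out, and was lost with the title series term, with the length trend removed and without robust shrinkage. As the HAMSAB AD libraries helped choose the gene, nothing is read from the call. Zero fiber and control differed by 0.07 ± 0.13. Tnrc18 thus stood low on HAMSAB, with the other diets close together.

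Zfhx3 was lower on HAMSAB in AD mice apart from a single library. HAMSAB AD libraries ran from 461 to 979 CPM with a median of 554, and zero-fiber AD libraries from 729.5 to 1032 CPM with a median of 907. HAMSAB_AD_M replicate 1, at 979 CPM, lay within the zero-fiber range, and the other 7 reached at most 606 CPM. Means were 593 ± 162 CPM on HAMSAB, 896 ± 100 on zero fiber and 749 ± 135 on control (SD, n = 8 each). The log2 fold change was -0.60 ± 0.14 (SE) against zero fiber and -0.34 ± 0.14 against control. It was -0.74 against zero fiber without HAMSAB_AD_M replicate 1 and between -0.64 and -0.55 without any other. Zero fiber stood above control by 0.26 ± 0.14.

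Tshz1, the other homeobox gene, rested on a single high library for much of its difference. HAMSAB AD libraries ran from 18.7 to 34.8 CPM with a median of 25.3, and zero-fiber AD libraries from 29.2 to 100.3 CPM with a median of 36.1. The highest value, 100.3 CPM from 163 reads, belongs to zero_fiber_AD_M replicate 4. The next highest, 61.5 CPM, rests on 4 reads of the shallow library. Means were 26.2 ± 5.47 CPM on HAMSAB, 45.4 ± 24.7 on zero fiber and 34.6 ± 10.8 on control (SD, n = 8 each). The log2 fold change of HAMSAB over zero fiber was -0.72 ± 0.16 (SE). Without zero_fiber_AD_M replicate 4 it was -0.44, and without any other library between -0.84 and -0.65. Zero fiber over control was 0.34 ± 0.16, or 0.06 without that library. HAMSAB over control was -0.38 ± 0.16.

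Maml3, the Notch coactivator, overlapped between diets in AD mice. HAMSAB AD libraries ran from 76.9 to 169 CPM with a median of 97.45, and zero-fiber AD libraries from 118 to 170.5 CPM with a median of 141. As for Zfhx3, HAMSAB_AD_M replicate 1 was the highest on HAMSAB, and the other 7 reached at most 114.5 CPM. Means were 105 ± 28 CPM on HAMSAB, 142 ± 20.4 on zero fiber and 133 ± 26.2 on control (SD, n = 8 each). The log2 fold change was -0.44 ± 0.12 (SE) against zero fiber, -0.55 without HAMSAB_AD_M replicate 1, and -0.34 ± 0.12 against control. Zero fiber and control differed by 0.09 ± 0.12.

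Epb41l4a had the largest fold change of the 6 and the fewest reads. HAMSAB AD libraries ran from 0.518 to 4.35 CPM with a median of 1.345, and zero-fiber AD libraries from 0 to 6.82 CPM with a median of 4.22. The library at 0 is the shallow zero_fiber_AD_M replicate 2, where a count of 0 allows up to 46.1 CPM at 3 counts. Means were 1.82 ± 1.33 CPM on HAMSAB, 3.90 ± 2.01 on zero fiber and 2.85 ± 1.75 on control (SD, n = 8 each). The log2 fold change was -1.45 ± 0.35 (SE) against zero fiber, between -1.63 and -1.32 with 1 library left out, and -0.86 ± 0.35 against control, or -0.54 without control_AD_M replicate 1. Zero fiber over control was 0.59 ± 0.32, and 0.91 without control_AD_M replicate 1, which moved it by over 1.5 times.

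Hectd4 differed in pattern from the other 5 genes. Its low group in AD mice was control, and zero fiber was the high group. Zero-fiber AD libraries ran from 47.7 to 82.2 CPM with a median of 61.5, and control AD libraries from 29.3 to 52.0 CPM with a median of 41.7. A single zero-fiber library, zero_fiber_AD_F replicate 2 at 47.7 CPM, lay within the control range. HAMSAB AD libraries ran from 39.3 to 59.0 CPM with a median of 55.6. Means were 51.8 ± 7.90 CPM on HAMSAB, 63.1 ± 10.2 on zero fiber and 42.3 ± 7.91 on control (SD, n = 8 each). Zero fiber over control was 0.62 ± 0.12 (log2, SE), and between 0.52 and 0.67 with 1 library left out. HAMSAB over zero fiber was -0.32 ± 0.12, and HAMSAB over control was 0.30 ± 0.12, the single positive value among the 6 genes. For zero fiber over control, 0 of the 6 genes were called by edgeR, as were 0% of all tested genes, while 1292 tested genes and 2 of the 6 had an unadjusted p under 0.05. Hectd4 was called there by DESeq2, and by edgeR without robust shrinkage, with DESeq2 size factors or with no filter. Of all genes tested in them, these settings called 24, 7, 1 and 63. It was not called by voom, with the title series term, with only the libraries compared or with the length trend removed. Nor was it called without the doubted pair or without the shallow library. Nothing is read from these calls. All 6 genes had a higher mean on zero fiber than on control, with a median log2 fold change of 0.30, and the rule that chose them drew on this comparison too. Within the title series below 2900 and from 2900 up (4 libraries of each diet in each), the difference was 0.77 and 0.38 for Hectd4, 0.19 and 0.42 for Tshz1, 0.53 and 0.02 for Zfhx3, and 0.16 and 0.06 for Maml3. It was 0.34 and -0.10 for Tnrc18 and -0.33 and 0.93 for Epb41l4a, so the direction of these last 2 did not hold in both series. Without the doubted pair, the lower series gave 0.09 for Tnrc18 and 0.28 for Epb41l4a.

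**Figure D2:**
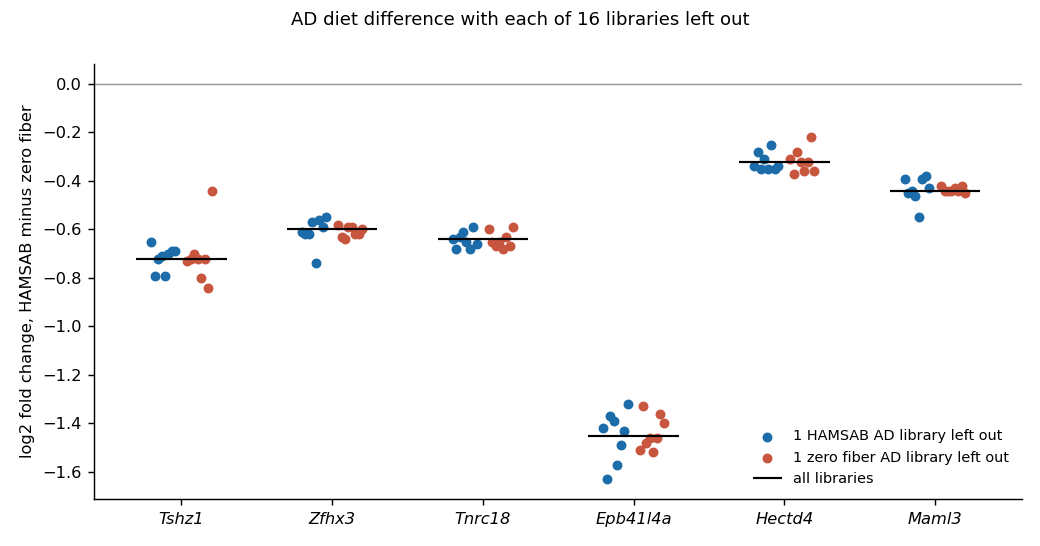
Log2 fold change of HAMSAB over zero fiber in AD mice (vertical axis) for each gene when each of the 16 libraries was left out in turn; blue points leave out a HAMSAB library, red points a zero-fiber library, and the bar is the value from all libraries. Every point is below 0, and the Tshz1 point at -0.44 is the fit without zero_fiber_AD_M replicate 4.

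Over the 16 fits that each left out 1 library, the direction between HAMSAB and zero fiber in AD mice held for all 6 genes. The numbers in the library titles form a series below 2900 and a series from 2900 up, and the labels do not say what they mark. HAMSAB_AD_F replicate 4, whose title number is 000, was put in neither series. For HAMSAB and zero fiber in AD mice, the lower series is mostly male and the upper mostly female. Differences between the series here therefore cannot be told apart from differences between the sexes. The mean log2 difference between HAMSAB and zero fiber was -0.76 below 2900 and -0.46 above for Tshz1. It was -0.63 and -0.57 for Zfhx3, -0.67 and -0.70 for Tnrc18, -0.30 and -0.30 for Hectd4, and -0.38 and -0.59 for Maml3, with 5 and 4 libraries below and 2 and 4 above. For Epb41l4a it was 0.01 below and -1.71 above, so the difference did not hold in the lower series with all libraries. The doubted pair is in that series. Without it the values there were -0.59 for Epb41l4a, -0.43 for Tnrc18, -0.72 for Tshz1, -0.67 for Zfhx3, -0.35 for Hectd4 and -0.29 for Maml3, over 5 and 2 libraries.

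Since most of the 6 transcripts are long, each library was given the slope of its log2 level on log2 transcript length over 12005 genes, in log2 CPM per doubling of length. The slope averaged -0.026 ± 0.029 in HAMSAB AD, 0.013 ± 0.055 in zero-fiber AD and 0.015 ± 0.024 in control AD libraries (SD, n = 8 each), with medians of -0.030, -0.008 and 0.006. The shallow library had the highest slope on zero fiber, at 0.139. With each library's length trend removed, the log2 fold changes between HAMSAB and zero fiber were -0.70 for Tshz1, -0.52 for Zfhx3, -0.60 for Tnrc18, -1.43 for Epb41l4a, -0.27 for Hectd4 and -0.40 for Maml3. All 6 were below 0 in this fit too.

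Split by sex, a comparison added after the values were seen, the AD difference between HAMSAB and zero fiber was below 0 in both sexes for all 6 genes, though that of Maml3 in males was 0.01 without HAMSAB_AD_M replicate 3. Tshz1 stood at 34.8, 24.7, 22.15 and 23.2 CPM in HAMSAB AD males, against 40.5, 61.5, 40.1 and 100.3 CPM in zero-fiber AD males. In females it stood at 18.7, 33.3, 26.4 and 26 CPM on HAMSAB, against 29.2, 29.55, 32 and 30.2 CPM on zero fiber. The ranges were apart in males and overlapped in females, and the share of tested genes so apart was not counted. The log2 fold change of Tshz1 was -1.22 ± 0.23 in males and -0.21 ± 0.22 in females (SE). Without zero_fiber_AD_M replicate 4 the male value was -0.67. The female value lay between -0.36 (without HAMSAB_AD_F replicate 2) and -0.08 (without HAMSAB_AD_F replicate 1). Maml3 showed the reverse order. In males it stood at 169, 93.4, 88.0 and 114.5 CPM on HAMSAB, against 128, 123, 127 and 118 CPM on zero fiber, with a log2 fold change of -0.10 ± 0.18. In females it stood at 76.9, 99.2, 95.8 and 105 CPM on HAMSAB, against 170.5, 161, 157.5 and 155 CPM on zero fiber, with a log2 fold change of -0.77 ± 0.16. Epb41l4a was at 2.705 ± 1.35 CPM on HAMSAB and 3.09 ± 2.37 CPM on zero fiber in males, and at 0.929 ± 0.450 CPM on HAMSAB and 4.71 ± 1.43 CPM on zero fiber in females (SD, n = 4 each). The difference between the sexes in this diet effect (male minus female) was -1.01 ± 0.32 for Tshz1, 0.67 ± 0.24 for Maml3 and 1.57 ± 0.70 for Epb41l4a. It was -0.46 for Tshz1 without zero_fiber_AD_M replicate 4 and 0.44 for Maml3 without HAMSAB_AD_M replicate 1. By edgeR it was called for 0 of the 6 genes and for 0 of the 12121 tested, while 3 of the 6 and 699 of all tested genes had an unadjusted p under 0.05. Within a sex, 1 of the 6 was called in males (Tshz1), where 0.0248% of tested genes were, and 1 in females (Maml3), where 0.0578% were. These libraries are those the rule used, and nothing is read from the calls, which held in 4 and 0 of 8 fits with 1 library left out. The library labelled zero_fiber_AD_F replicate 1 is among the females here. Sex and title series nearly coincide in these libraries. Every male library except zero_fiber_AD_M replicate 4 is in the lower series. Of the female libraries, only HAMSAB_AD_F replicate 1 and zero_fiber_AD_F replicate 1 are in it. A difference between the sexes in the diet effect therefore cannot be told apart from a difference between the series. Without the doubted pair Tshz1 was at -1.21 in males and -0.23 in females, and Maml3 at -0.09 in males and -0.75 in females.

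**Figure D3:**
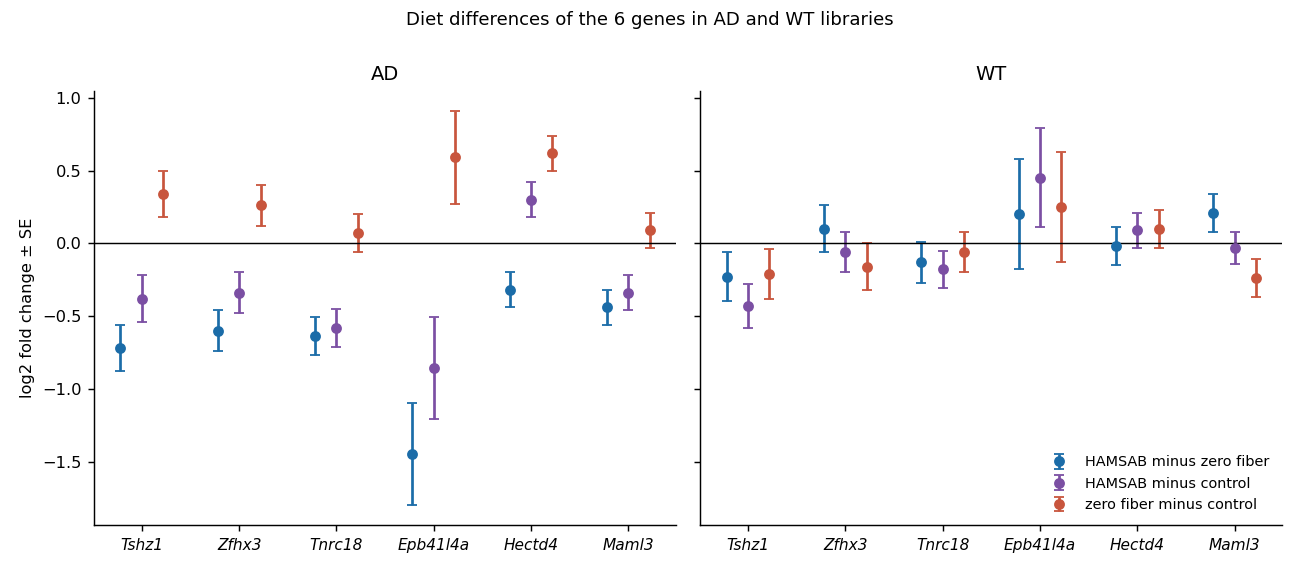
Log2 fold change ± SE (vertical axis) of each gene for 3 diet comparisons, in AD mice at the left and WT mice at the right. In AD mice the HAMSAB over zero fiber values run from -1.45 to -0.32, and in WT mice from -0.23 to 0.21.

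The same diets in WT mice use other libraries, and a test there does not draw on the AD values of HAMSAB against zero fiber. The rule names no genotype for zero fiber above control, so WT libraries may have entered the choice of a gene taken that way. For such a gene the WT values are a description. Between HAMSAB and zero fiber in WT mice, 3 of the 6 genes were higher and 3 lower, with a median log2 fold change of 0.04, against 0.005 over all tested genes. None of the 6 was called by edgeR, DESeq2 or limma voom, where edgeR called 1.34% of tested genes. An unadjusted p under 0.05 was found for 0 of the 6 and for 1424 of the 12121 tested genes. Tnrc18 ran from 52.7 to 93.8 CPM with a median of 76.4 in HAMSAB WT libraries, and from 40.9 to 102 CPM with a median of 80.9 in zero-fiber WT libraries. Its log2 fold change was -0.13 (95% interval -0.41 to 0.16, edgeR adjusted p = 0.823). Zfhx3 ran from 600.1 to 1101 CPM with a median of 952 on HAMSAB, and from 432 to 1032 CPM with a median of 874 on zero fiber. Its log2 fold change was 0.10 (-0.22 to 0.42, adjusted p = 0.904). The diets overlapped over nearly their whole range for both genes.

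Maml3 was the gene whose WT value lay farthest above 0 for its error. It ran from 104 to 213.5 CPM in HAMSAB WT libraries with a median of 167, and from 129.9 to 163 CPM with a median of 137 in zero-fiber WT libraries. The log2 fold change was 0.21 (95% interval -0.05 to 0.47, adjusted p = 0.562). Tshz1 had -0.23 (-0.58 to 0.13, adjusted p = 0.689), Hectd4 -0.02 (-0.28 to 0.24, adjusted p = 1.0) and Epb41l4a 0.20 (-0.57 to 0.96, adjusted p = 0.933). Within the title series below 2900 (5 and 4 libraries) the differences ran from -0.26 to 0.37, and in the series from 2900 up (3 and 2 libraries) from -0.06 to 0.67. The highest was Zfhx3, at -0.01 and 0.67. The difference between the genotypes in the diet effect (AD minus WT) was below 0 for all 6 genes, from -1.64 ± 0.51 for Epb41l4a to -0.30 ± 0.18 for Hectd4 (SE). It holds the AD values that chose the genes and is a description. Of the 6, 0 were called, where 0.677% of tested genes were.

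Between HAMSAB and control in WT mice, 2 of the 6 genes were higher and 4 lower, with a median log2 fold change of -0.05. Tshz1 ran from 17.6 to 35.3 CPM with a median of 31.2 in HAMSAB WT libraries, and from 36.3 to 52.4 CPM with a median of 38.2 in control WT libraries. No library of either diet reached into the range of the other, and the share of tested genes so apart was not counted. Its log2 fold change was -0.43 (95% interval -0.75 to -0.12), and it did not pass over all genes (edgeR adjusted p = 0.203). The range with 1 library left out was -0.48 to -0.36. The other 5 genes ran from -0.18 (Tnrc18) to 0.45 (Epb41l4a), with adjusted p from 0.569 to 0.969. None of the 6 was called by edgeR, DESeq2 or voom, where edgeR called 0.239% of tested genes. An unadjusted p under 0.05 was found for 1 of the 6 and for 1579 of the 12121 tested genes. The series below 2900 holds 1 control WT library, so within-series values rest on 3 and 7 libraries from 2900 up, where Tshz1 was at -0.62. Zero fiber over control in WT mice gave -0.24 ± 0.13 for Maml3, -0.21 ± 0.17 for Tshz1, 0.25 ± 0.38 for Epb41l4a and values between -0.16 and 0.10 for the other 3, as a description, with 0 of the 6 called by edgeR, where 0.00825% of tested genes were. From 2900 up (2 and 7 libraries) it was -0.92 for Zfhx3, -0.81 for Tnrc18 and -0.67 for Tshz1. For Maml3, Hectd4 and Epb41l4a it was -0.26, -0.06 and 0.03 there. Below 2900 (4 libraries and 1) the values in the same order were 0.21, 0.29, -0.13, -0.18, 0.26 and 0.26. The direction for Zfhx3 and Tnrc18 thus did not hold in both series.

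The order of the 6 diet and genotype means differed between genes. HAMSAB AD was the lowest of the 6 for every gene except Hectd4, where control AD was lowest. The highest was zero-fiber AD for Tshz1, Tnrc18, Epb41l4a and Hectd4, and control WT for Zfhx3 and Maml3. The highest mean was 1.49 times the lowest for Hectd4, 1.56 for Zfhx3, 1.60 for Maml3, 1.63 for Tnrc18, 1.74 for Tshz1 and 2.15 for Epb41l4a. Neighbours in that order differed by less than the larger of their SDs, with 2 exceptions. These were Tnrc18 between HAMSAB AD and HAMSAB WT (54.2 ± 9.30 and 72.4 ± 14 CPM) and Hectd4 between control AD and control WT (42.3 ± 7.91 and 51.1 ± 3.89 CPM).

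On HAMSAB, AD mice stood below WT mice for all 6 genes, which again involves the HAMSAB AD libraries used to choose them. Maml3 averaged 105 ± 28 CPM in AD and 167 ± 40.03 CPM in WT mice, and Zfhx3 593 ± 162 CPM in AD and 892 ± 183 CPM in WT mice (SD, n = 8 each). Their log2 fold changes were -0.66 ± 0.11 and -0.59 ± 0.14 (SE), and these 2 of the 6 were called, where 1.16% of tested genes were. Maml3 was called in all 16 fits with 1 library left out, from -0.77 to -0.59, and Zfhx3 in 11 of 16, from -0.72 to -0.49. With the title series term Maml3 was at -0.68 and called, and Zfhx3 was at -0.56 and not called. As the HAMSAB AD libraries helped choose the genes, nothing is read from these calls or from how often they held. On zero fiber the log2 fold changes of AD over WT ran from -0.01 ± 0.13 for Maml3 to 0.90 ± 0.37 for Epb41l4a. On control they ran from -0.34 ± 0.11 for Maml3 to 0.56 ± 0.33 for Epb41l4a, and the last was 0.24 without control_AD_M replicate 1. None of the 6 was called by edgeR on zero fiber, where 0.00825% of tested genes were, or on control, where 0% were.

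Sex was not used to choose the genes. All 6 had a higher mean in males than in females, with a median log2 fold change of 0.20, against -0.005 over all tested genes. Tnrc18 had 0.26 ± 0.08 (SE, edgeR adjusted p = 0.172), Zfhx3 0.24 ± 0.08 (adjusted p = 0.268), Hectd4 0.16 ± 0.07 (adjusted p = 0.407), Tshz1 0.16 ± 0.09 (adjusted p = 0.581), Epb41l4a 0.37 ± 0.20 (adjusted p = 0.547) and Maml3 0.07 ± 0.07 (adjusted p = 0.783). None passed over all genes, where 0.124% of tested genes did. An unadjusted p under 0.05 was found for 3 of the 6 and for 1259 of the 12121 tested genes. DESeq2 and voom called 0 of the 6 as well, and edgeR without a filter on low counts called Zfhx3. The library labelled zero_fiber_AD_F replicate 1, with the Xist and Ddx3y levels of a male, is counted as female here. Without it edgeR also called 0 of the 6.

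The genes were next compared library by library, as deviations from the mean of their own diet, genotype and sex group, which leaves out the group differences used to choose them. The 45 libraries of at least 500000 counts gave 15 pairs of genes, and with the length slope of each library 21 relations, over which p was adjusted. The shuffling treated the 45 deviations as independent. Because 12 group means were taken out first, the deviations within a group are tied to each other. The p-values of all 21 relations are therefore too small, and those not far under 0.05 may not hold. The pairs had a median Pearson r of 0.18, and 12 of 15 were above 0. Zfhx3 and Tnrc18 deviated together, with r = 0.57 (permutation p = 4e-05, adjusted p = 0.00084) and Spearman rho = 0.46 (permutation p = 0.0017, adjusted p = 0.0178). Without the 2 libraries farthest from the median r was 0.53. Within the title series r was 0.17 below 2900 and 0.52 from 2900 up (22 libraries each), so the relation did not hold in the lower series. Hectd4 and Maml3 had r = 0.39 (permutation p = 0.00724, adjusted p = 0.0304) and rho = 0.41 (permutation p = 0.0061, adjusted p = 0.0427), or r = 0.44 without the 2 farthest libraries. Within the series r was 0.33 and 0.12, so it was weaker in the upper one. The other 13 pairs did not pass.

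**Figure D4:**
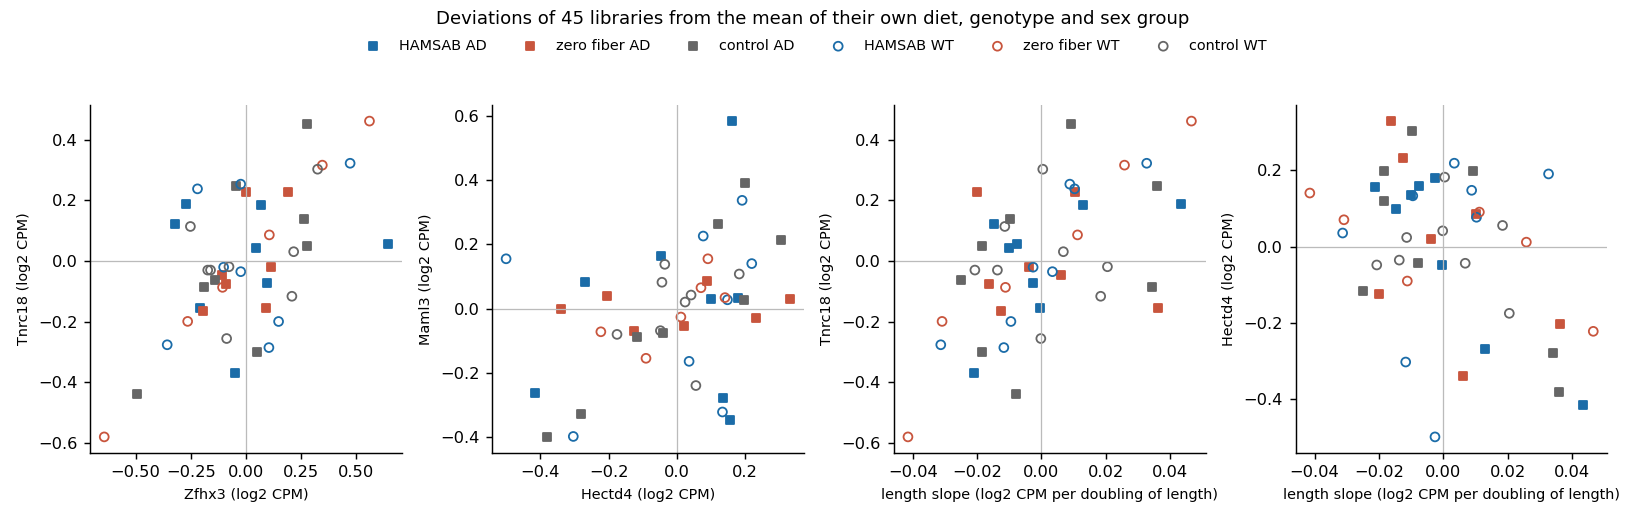
Deviations of 45 libraries from the mean of their own group in log2 CPM: Tnrc18 against Zfhx3, Maml3 against Hectd4, and Tnrc18 and Hectd4 against the slope of level on transcript length (log2 CPM per doubling of length). Colours give the diet, filled squares AD and open circles WT; the panels have r of 0.57, 0.39, 0.56 and -0.42.

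The length slope of a library moved with Tnrc18 (r = 0.56, permutation p = 8e-05, adjusted p = 0.00084). Its rho was 0.52 (permutation p = 0.00032, adjusted p = 0.00672), and r was 0.50 without the 2 farthest libraries. The slope moved with Zfhx3 as well (r = 0.41, permutation p = 0.00506, adjusted p = 0.0266), with a rho of 0.39 (permutation p = 0.00921, adjusted p = 0.0484) and r = 0.42 without the farthest pair. For Hectd4 the sign was the other way (r = -0.42, permutation p = 0.00417, adjusted p = 0.0266), although its transcript is longer than that of Tnrc18. Its rho of -0.30 did not pass (permutation p = 0.0449, adjusted p = 0.189), and r was -0.31 without the 2 farthest libraries. Within the series below 2900 and from 2900 up, r was 0.63 and 0.40 for Tnrc18, 0.10 and 0.77 for Zfhx3, and -0.71 and -0.10 for Hectd4. The relations of Zfhx3 and Hectd4 were thus near 0 in 1 series each. With the trend on length taken out, r was 0.49 for Zfhx3 and Tnrc18 and 0.45 for Hectd4 and Maml3. The slope still went with the levels after that step, at r = 0.45 for Tnrc18, 0.23 for Zfhx3 and -0.58 for Hectd4, so the step did not free these genes of it.

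The genes most like each of the 6 over the 45 libraries, group differences included, were found by Pearson r of log2 CPM, as a description. Tnrc18 was closest to Spen, a very large corepressor that binds RBPJ, and Nsd1, a histone methyltransferase (r = 0.79 each). Zfhx3 was closest to Prrc2b and again Spen (0.78 each). Maml3 was closest to Zcchc14 (0.66) and Tbc1d16 (0.61), Hectd4 to Ccdc50 (0.67), and Tshz1 to the cohesin loader Nipbl (0.60) and Zfp251 (0.57). The scarce Epb41l4a was closest to Gpatch2 (0.60) and Sag (0.55). Spen has 14089 and Nsd1 17483 bases of exon, against the median of 4170, and depth and the length trend are shared by the points.

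Relatives of the 6 genes were then counted from lists. Of 10 tested members of the zinc finger homeobox family, which include Tshz1 and Zfhx3, 0 were higher and 10 lower on HAMSAB than on zero fiber in AD mice, with a median log2 fold change of -0.21 (0.004 over all tested genes) and Tshz1 as the called gene. Zeb2, a zinc finger homeobox repressor, was at -0.12 ± 0.12 (SE). In WT mice 6 of the 10 were higher and 4 lower (median 0.04), with 0 called. Of 12 BAH domain proteins, 4 were higher and 8 lower in AD mice, with Tnrc18 as the called gene, and 6 were higher and 6 lower in WT mice with 0 called. Of 22 HECT ligases, 4 were higher and 18 lower in AD mice, and 5 higher and 17 lower in WT mice, with 0 called in either. Of 17 FERM domain genes, 10 were higher and 7 lower in AD mice, and 8 higher and 9 lower in WT mice, also with 0 called. Between these diets 0.182% of all tested genes were called in AD mice and 1.34% in WT mice.

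In the FERM list the comparisons that chose no gene gave 2 calls. Of all tested genes, 0.239% were called between HAMSAB and control in WT mice and 0.124% between the sexes. Epb41l3, a band 4.1 protein, ran from 29.8 to 46.9 CPM with a median of 32.3 in HAMSAB WT libraries, and from 12.7 to 30.3 CPM with a median of 19.4 in control WT libraries. It was higher on HAMSAB (log2 fold change 0.75 ± 0.17, SE; edgeR adjusted p = 0.0417), in 8 of 16 fits with 1 library left out, and not with a term for the title series. Ezr, which encodes ezrin, ran from 0 to 7.0 CPM with a median of 2.59 in males, and from 1.5 to 8.5 CPM with a median of 4.51 in females. It was lower in males (-0.93 ± 0.20, adjusted p = 0.0232), in 44 of 46 such fits, and not with voom or the series term.

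Notch pathway genes are the partners of Maml3. Of 5 tested ligands and receptors, 0 were higher and 5 lower on HAMSAB than on zero fiber in AD mice (median -0.35), with 0 called, and Notch2, the receptor with the most reads, was at -0.35 ± 0.33 (SE). In WT mice 2 were higher and 3 lower, with 0 called, and Notch2 was at 1.07 ± 0.37 (adjusted p = 0.161). Of 15 genes of receptor processing, 8 were higher and 7 lower in AD mice and 11 higher and 4 lower in WT mice, with 0 called in either. Of 13 genes of the nuclear complex, Maml3 among them, 3 were higher and 10 lower in AD mice with 0 called. In WT mice 6 were higher and 7 lower, and 2 were called, where 1.34% of all tested genes were. That total over all genes was unstable, from 2 to 286 genes with 1 library left out.

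The 2 called in WT mice were Maml2, another mastermind-like coactivator, and Fbxw7, the ubiquitin ligase subunit that marks the Notch intracellular domain for breakdown. Maml2 ran from 401 to 859 CPM with a median of 593 in HAMSAB WT libraries, and from 248 to 357 CPM with a median of 290 in zero-fiber WT libraries, with no overlap. It was higher on HAMSAB by 1.01 ± 0.26 (log2, SE; edgeR adjusted p = 0.0413), and was called in 3 of 14 fits with 1 library left out, at 0.90 to 1.10. Fbxw7 ran from 70.7 to 116 CPM with a median of 93.0 on HAMSAB, and from 44.1 to 72.8 CPM with a median of 60.7 on zero fiber. It was higher by 0.66 ± 0.16 (adjusted p = 0.0269), and was called in 6 of the 14 fits. In AD mice Maml2 was at -0.02 ± 0.23. How many of all tested genes had no overlap between these diets in WT mice was not counted.

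Of 3 tested Notch target genes, 1 was higher and 2 lower on HAMSAB than on zero fiber in WT mice. Hes1, a transcriptional repressor and the best known target, was called, where 1.34% of all tested genes were. It ran from 17.1 to 40.3 CPM with a median of 25.4 in HAMSAB WT libraries, and from 43.7 to 63.6 CPM with a median of 59.2 in zero-fiber WT libraries, with no overlap. It was lower on HAMSAB by 1.07 on the log2 scale (log2 fold change -1.07 ± 0.24, SE; edgeR adjusted p = 0.0185), and was called in 12 of the 14 fits. In AD mice 2 of the 3 targets were higher and 1 lower, with 0 called. Between the sexes, Spen, which is also in the nuclear complex list, ran from 70.0 to 189 CPM with a median of 111 in males, and from 57.8 to 144 CPM with a median of 84.0 in females. It was higher in males by 0.44 ± 0.08 (adjusted p = 0.00341), in all 46 fits with 1 library left out. Of all tested genes, 0.124% were called between the sexes. Spen was at -0.56 ± 0.14 for HAMSAB over zero fiber in AD mice, where it was not called.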

How the data were processed

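The data are 1 deposited table of counts per gene symbol for 46 libraries, in which the authors left the counts as raw numbers of reads. The submitters' processing notes name STAR 2.5.2b, featureCounts 1.5.2 and the build GRCm38. The annotation release and the strand setting were not stated. Per the labels' protocols, total RNA was purified with RNeasy Micro columns. Library totals were 52114 to 6950429.

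The counts were fitted with edgeR 4.0.16 (R 4.3.3). The filterByExpr step left 12121 genes, TMM factors lay between 0.919 and 1.25, and 12 group means (diet, genotype and sex) were tested by the quasi-likelihood F test with robust shrinkage. Diet and genotype comparisons average the sexes. A gene was called when its p, adjusted by Benjamini-Hochberg across the 12121 genes, was under 0.05. Levels are CPM on TMM-adjusted totals. Tested on simulated data made at the real means and depths (11860 genes, HAMSAB against zero fiber in WT), the fit recovered 79.8% of 2-fold and 98% of 4-fold differences, with 7 false calls. The simulation drew each gene independently and built in no title series, length trend or mislabelled library. Differences under 2-fold were not simulated. Its figures therefore do not say how reliable the calls in the real libraries are. Permutation tests shuffled libraries across the groups, with 100000 permutations, two-sided (scipy 1.17.1). Alternatives were DESeq2 1.42.0, limma 3.58.1 voom, DESeq2 size factors, no filter, a term for the title series, fewer libraries, removal of the length trend and each library left out.

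The 6 genes and the gene lists were chosen with earlier results of these data known. Of the lists, genes called in the WT comparisons of HAMSAB or between the sexes are named, up to 4 per list, and Zeb2, Notch2 and the AD values of Maml2 and Spen were added after their values were seen. Fits by sex, without robust shrinkage and without the shallow library were also added later. Exon lengths and positions come from the GENCODE annotation of GRCm38. Replicate numbers follow accession order and pair no libraries. The second gene most like Hectd4 is not reported here.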

Additional observations from a re-analysis of the deposited data

Results flagged for a closer look

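Among 36 sets of 6 to 8 libraries (6 genes, each in 6 diet and genotype groups), a single library stood apart from the rest of its set 6 times by the gap to its nearest neighbour, where chance gives about 5% of sets. In 4 of these the gene was Tshz1: zero_fiber_AD_M replicate 4 was high at 100.3 CPM, control_AD_F replicate 1 high at 58.3 CPM, HAMSAB_WT_M replicate 4 low at 17.6 CPM and control_WT_F replicate 2 high at 52.4 CPM. The other 2 were the same library, HAMSAB_AD_M replicate 1, with Zfhx3 high at 979 CPM and Maml3 high at 169 CPM. The cause was not tested. HAMSAB over zero fiber in AD mice was -0.74 for Zfhx3 and -0.55 for Maml3 without HAMSAB_AD_M replicate 1, and -0.44 for Tshz1 without zero_fiber_AD_M replicate 4.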

How the results depend on the processing

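In the WT comparisons of HAMSAB with zero fiber and with control, 0 of the 6 genes were called under every alternative and without any 1 library. Between the sexes 0 were called, 1 without a filter on low counts (Zfhx3), and 0 without any 1 library. The median r of the 15 pairs was 0.18, and 0.17 with all 46 libraries or with DESeq2 size factors.

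Counts over all genes moved more. HAMSAB against zero fiber in WT gave 162, 291 with DESeq2, 329 with voom, 248 with the series term, 265 without robust shrinkage, and 2 (without zero_fiber_WT_M replicate 2) to 286 (without HAMSAB_WT_M replicate 4). HAMSAB against control in WT gave 29, 152 without a filter, 77 with DESeq2, 90 with voom, 3 with the series term or with only the libraries compared, and 1 (without HAMSAB_WT_F replicate 1) to 153 (without HAMSAB_WT_M replicate 4). Between the sexes 15 were called, 68 without a filter, 23 without the doubted pair and 12 to 22 without 1 library. HAMSAB against zero fiber in AD gave 22, 70 without a filter, 56 with DESeq2, 13 without the shallow library and 10 (without HAMSAB_AD_F replicate 1) to 59 (without zero_fiber_AD_M replicate 3). Zero fiber against control in AD gave 0, 1 with DESeq2 size factors, with only the libraries compared or without the doubted pair, 63 without a filter, 24 with DESeq2, 7 without robust shrinkage and 0 to 11 (without zero_fiber_AD_F replicate 4). HAMSAB against control in AD gave 13, 181 without a filter, 93 with DESeq2 or with only the libraries compared, 59 with voom, 30 without the doubted pair and 1 (without control_AD_F replicate 1) to 86 (without control_AD_F replicate 3).

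In WT, the log2 fold changes of HAMSAB that reached or crossed 0 with 1 library left out were Hectd4 against zero fiber (-0.06 to 0.05), and Zfhx3 (-0.15 to 0.00) and Maml3 (-0.09 to 0.03) against control. That of Tnrc18 on zero fiber against control also crossed 0 (-0.14 to 0.03). No paired analysis was possible because the labels give no replicate numbers. The cause of these shifts was not tested. Epb41l4a, at a median of 5 reads, is limited by depth.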
